A study of Mus musculus with 4 samples.

Results

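MIZ-1 ChIP-seq peaks were examined at 41 mouse genes of the core cell cycle machinery, listed by name: 17 cyclins, 10 cyclin-dependent kinases, 8 E2F transcription factors, 3 genes of the retinoblastoma (RB) family and 3 CDC25 phosphatases. They are 41 of the 21938 protein-coding genes of the GENCODE basic annotation. All 41 were found in it by symbol. The list names genes by their function, and it was drawn up with earlier results of these data known. ChIP-seq sequences the DNA that an antibody pulls down with a chromatin protein, here MIZ-1 (antibody H-190), in B cells of the spleen selected by the surface marker B220 (B220+ splenocytes). MIZ-1WT cells came from wild-type mice and MIZ-1DPOZ cells from MB1-Cre x Miz-1floxPOZ mice, all young adults on a C57BL/6 background. In the latter, Cre expressed from the Mb1 (Cd79a) locus removes the POZ domain of MIZ-1 in B cells, so that a shortened protein with its DNA-binding zinc fingers remains. There was 1 ChIP and 1 input library per genotype, 4 libraries in all, and the labels do not say how many animals each held. Without replicates no difference between genotypes could be tested, and every comparison below describes the libraries. The peak lists hold no measurement by which the deletion or the B cell identity of the cells could be checked. A different mix of B cell subsets and a different occupancy per cell cannot be told apart.

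MIZ-1 is a zinc finger transcription factor that can activate genes on its own and repress them together with MYC, and it has long been studied for its part in cell cycle arrest. Cyclins are the regulatory partners of the CDKs. D-type cyclins with CDK4 or CDK6, and E-type cyclins with CDK2, phosphorylate the RB proteins, which otherwise hold E2F factors inactive at the genes needed for DNA replication. A-type and B-type cyclins with CDK1 then drive mitosis, after CDC25 phosphatases remove the inhibitory phosphates, while cyclins C, H, K, L and T serve mainly kinases that act in transcription or splicing.

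The authors' peak lists held 34209 peaks for MIZ-1WT and 78357 for MIZ-1DPOZ. The height of a peak is given below as its summit pileup, the number of fragments over its highest point, which was solved from the deposited scores. Its median was 9 fragments for MIZ-1WT and 12 for MIZ-1DPOZ, so that most peaks rest on few fragments. The MIZ-1DPOZ ChIP library was 1.34 times deeper by the same scores. A promoter peak is one that overlaps by at least 1 bp the stretch from 2000 bp before to 1000 bp after any start site of a gene. The score given with it is −log10 q, the authors' significance after correction for multiple testing, and fold is their summit enrichment relative to the background around it.

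The DNA under the peaks that ranked highest in both lists is shown to let the sequence context of the values below be read directly. The 5 genes are among those with the largest smaller score of the pair of lists. Each line gives bases from 100 bp to each side of the summit of the MIZ-1WT peak, on the strand of the gene, 5′ to 3′, from GRCm38 (mm10). Bases that the annotation marks as an untranslated region are left out, which at Ccne2 removes the summit itself. The Ccne1 and E2f3 stretches overlap no MIZ-1DPOZ peak. Capitals mark every match to the 5 motifs described further on.
Rb1, chr14:73325499-73325641, minus strand: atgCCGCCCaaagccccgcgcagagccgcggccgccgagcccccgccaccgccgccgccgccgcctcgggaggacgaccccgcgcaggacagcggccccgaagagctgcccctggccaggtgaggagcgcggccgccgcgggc
Ccne1, chr7:38107671-38107871, minus strand: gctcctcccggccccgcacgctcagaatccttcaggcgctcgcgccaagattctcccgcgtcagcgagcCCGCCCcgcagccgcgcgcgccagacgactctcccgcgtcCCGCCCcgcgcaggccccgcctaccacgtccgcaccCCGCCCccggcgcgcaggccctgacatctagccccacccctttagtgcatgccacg
Ccne2, chr4:11191632-11191725, plus strand: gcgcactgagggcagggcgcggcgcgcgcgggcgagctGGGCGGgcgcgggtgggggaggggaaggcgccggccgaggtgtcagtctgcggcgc
E2f3, chr13:29985032-29985232, minus strand: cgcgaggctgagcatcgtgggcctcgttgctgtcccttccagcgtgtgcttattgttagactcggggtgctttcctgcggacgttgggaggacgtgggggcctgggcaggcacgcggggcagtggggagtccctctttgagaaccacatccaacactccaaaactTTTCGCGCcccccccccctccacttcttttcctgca
Ccnl2, chr4:155812763-155812963, plus strand: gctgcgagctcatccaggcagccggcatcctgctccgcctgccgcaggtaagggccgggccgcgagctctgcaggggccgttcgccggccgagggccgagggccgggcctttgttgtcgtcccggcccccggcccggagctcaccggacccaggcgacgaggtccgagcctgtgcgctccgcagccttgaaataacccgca
The Rb1 stretch opens with the start codon, runs through the coding part of the gene's opening exon and ends in the intron after it. Its GC content was 82.5%, with 24 CpG dinucleotides in 143 bases. The E2f3 stretch had the lowest GC content of the 5, at 62.2%, and held 1 E2F site (TTTCGCGC). The Ccnl2 stretch held none of the motifs.

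MIZ-1WT promoter peaks were found at 24 of the 41 genes (58.5%, Wilson 95% interval 43.4 to 72.2) and MIZ-1DPOZ promoter peaks at 27 (65.9%, 50.5 to 78.4). Over all protein-coding genes the shares were 30.9% and 48.7%. Cell cycle genes mostly have CpG islands, however, and 35 of the 41 had a CpG-rich start, defined as at least 55% GC and an observed over expected CpG of at least 0.65. All 9482 protein-coding genes with such a start carried a MIZ-1WT promoter peak in 53.6% of cases and a MIZ-1DPOZ promoter peak in 74.2%. Among the 35 members of this kind the counts were 22 (62.9%, 46.3 to 76.8) and 25 (71.4%, 54.9 to 83.7), so that both intervals included the share of all such genes. All intervals cover counting error only.

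**Figure D1:**
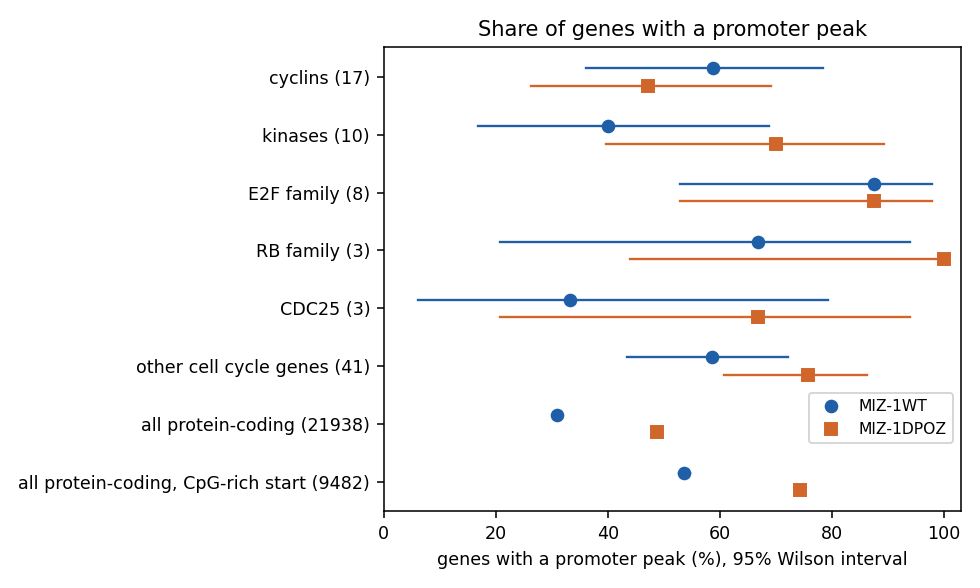
Percentage of genes with a promoter peak (horizontal axis) in the MIZ-1WT list (circles) and the MIZ-1DPOZ list (squares) for the 5 classes, for 41 other cell cycle genes and for all protein-coding genes, with the number of genes in brackets; bars are 95% Wilson intervals, which for the largest groups are shorter than the symbols. The E2F family stands at 87.5% in both lists, the cyclins at 58.8% and 47.1%, and the class intervals are wide.

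Promoter peaks in both lists were present at 18 genes (43.9%, against 26.7% of all protein-coding genes and 47.6% of those with a CpG-rich start). A peak in MIZ-1WT only was present at 6 genes (14.6%, against 4.22% and 6.05%), and in MIZ-1DPOZ only at 9 (22.0%, against 22.0% and 26.7%). The 8 genes with a promoter peak in neither list (19.5%, against 47.1% and 19.7%) were Ccnb2, Ccnc, Ccnd1, Ccnh, Ccnt1, Ccnt2, Cdk7 and Cdc25c, none of which had a peak in its gene body either. A count in 1 list only depends on where the authors' caller drew its line. With the MIZ-1DPOZ list cut to the 34209 peaks with the smallest p-values, 14 genes kept a MIZ-1DPOZ promoter peak (25.3% of all protein-coding genes did), 8 were in both lists (16.1%), 16 in MIZ-1WT only (14.8%) and 6 in MIZ-1DPOZ only (9.28%). At a −log10 q of at least 5, in contrast, 4 genes had a MIZ-1WT promoter peak (9.78% of all protein-coding genes) and 19 a MIZ-1DPOZ promoter peak (33.3%). Which list held more of the genes thus turned with the cutoff, as it did for protein-coding genes at large.

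None of these peaks was high. The best promoter peak of a gene reached 7 to 13 fragments for MIZ-1WT and 9 to 18 for MIZ-1DPOZ, whereas the best promoter peaks of all protein-coding genes reached up to 296 and 346 fragments, with medians of 9 and 13. The medians of the cell cycle genes were 9 and 12 fragments.

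**Figure D2:**
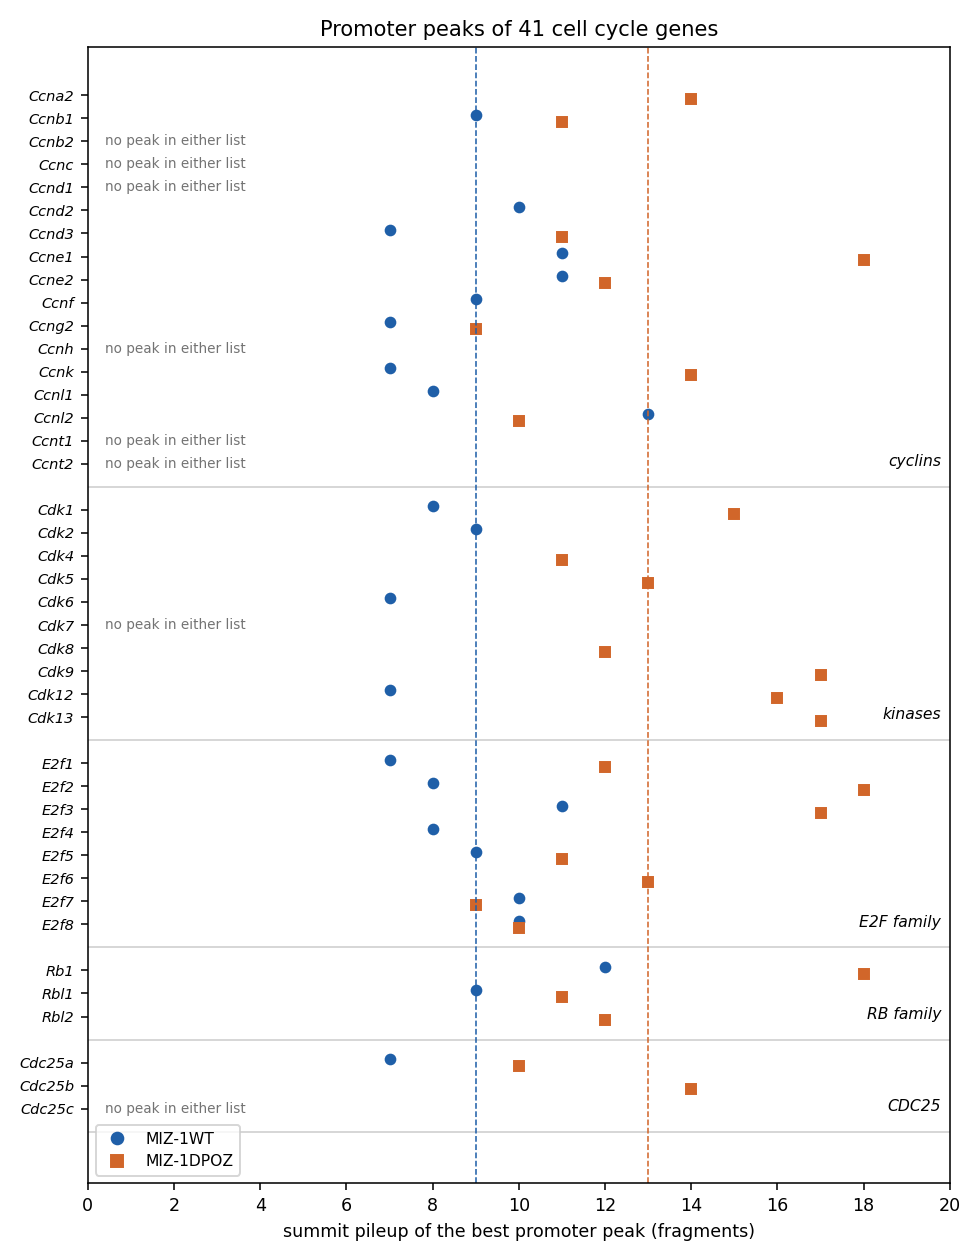
Summit pileup in fragments (horizontal axis) of the best promoter peak of each of the 41 genes, by class, in the MIZ-1WT list (circles) and the MIZ-1DPOZ list (squares); dashed lines are the medians over all protein-coding genes with a promoter peak, 9 and 13 fragments. No circle passes 13 fragments and no square passes 18, and 8 genes have no peak in either list.

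Among the cyclins, 10 of 17 had a MIZ-1WT promoter peak (58.8%) and 8 a MIZ-1DPOZ promoter peak (47.1%). Over all protein-coding genes the shares were 30.9% and 48.7%. Over those with a CpG-rich start, as at 14 of the 17, they were 53.6% and 74.2%. Peaks were in both lists at 7 cyclins, in MIZ-1WT only at 3, in MIZ-1DPOZ only at 1 and in neither at 6. The E-type cyclins, which drive entry into S phase with CDK2, were both in the 2 lists. At Ccne1 (ENSMUSG00000002068) the MIZ-1WT peak reached 11 fragments (fold 5.77, −log10 q 5.10) with its summit 237 bp upstream of the start, and the MIZ-1DPOZ peak 18 fragments (fold 6.92, −log10 q 10.3) at 677 bp downstream. These best peaks did not overlap, although a lower MIZ-1WT peak of 10 fragments at 278 bp downstream did overlap the MIZ-1DPOZ peak. At Ccne2 (ENSMUSG00000028212) the peaks of 11 fragments in MIZ-1WT (fold 6.16, −log10 q 5.66) and 12 in MIZ-1DPOZ (fold 4.92, −log10 q 5.05) overlapped, with summits 58 bp apart.

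Ccnl2 (ENSMUSG00000029068), a cyclin of the splicing-linked kinases, had the highest MIZ-1WT promoter peak of all 41 genes. It lay at chr4:155812770-155812996 with 13 fragments (fold 7.53, −log10 q 8.15), in an intron, 374 bp downstream of the start. The MIZ-1DPOZ peak there overlapped it and held 10 fragments (fold 4.68, −log10 q 4.19). Its relative Ccnl1 had MIZ-1WT peaks only, of 8 and 7 fragments (fold 4.69 and 4.05, −log10 q 3.18 and 2.27). The other transcriptional cyclins were mostly without peaks: Ccnc, Ccnh, Ccnt1 and Ccnt2 had none. Ccnk had 7 fragments in MIZ-1WT (−log10 q 1.89) and 14 in MIZ-1DPOZ (−log10 q 7.89) at a position nearer to the start of the neighbouring gene Setd3. A second MIZ-1DPOZ peak at Ccnk, of 10 fragments (−log10 q 4.19), had its summit 213 bp downstream of the start of Ccnk itself.

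The B-type cyclins, the partners of CDK1 in mitosis, differed from each other. At Ccnb1 (ENSMUSG00000041431) the MIZ-1WT peak held 9 fragments (fold 5.38, −log10 q 4.14) with its summit 65 bp downstream of a start. The MIZ-1DPOZ peak held 11 (fold 5.11, −log10 q 5.05) at 78 bp upstream, and the intervals did not overlap. At Ccnb2 (ENSMUSG00000032218) neither list held a peak. The upstream bases of their RefSeq promoters (GRCm38.p6) are set side by side because the pair differs in base composition as well as in peaks. The Ccnb1 line leaves out bases that GENCODE marks as untranslated, and the summit of the MIZ-1DPOZ peak lies within it.
Ccnb1, chr13:100786571-100786736, minus strand: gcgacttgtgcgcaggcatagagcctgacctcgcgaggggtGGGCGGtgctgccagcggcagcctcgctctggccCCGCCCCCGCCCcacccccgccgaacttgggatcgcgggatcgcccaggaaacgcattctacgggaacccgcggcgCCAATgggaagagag
Ccnb2, chr9:70421555-70421804, minus strand: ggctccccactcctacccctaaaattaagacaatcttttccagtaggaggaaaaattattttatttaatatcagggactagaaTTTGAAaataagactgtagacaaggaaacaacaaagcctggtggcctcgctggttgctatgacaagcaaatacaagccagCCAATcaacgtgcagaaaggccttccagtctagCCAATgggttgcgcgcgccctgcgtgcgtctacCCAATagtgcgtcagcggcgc
Capitals mark GC boxes, CCAAT boxes and CHR elements. The Ccnb1 stretch had a GC content of 71.1%, 19 CpG in 166 bases, 3 GC boxes and 1 CCAAT box. The Ccnb2 stretch had 47.6% GC, 10 CpG in 250 bases, 3 CCAAT boxes, 1 CHR element and no GC box. The stretches differ in length, and the full promoters hold more matches. The full Ccnb2 promoter had 51.7% GC, 3 CCAAT boxes, 2 CHR elements and 1 GC box. The full Ccnb1 promoter had 66.3% GC, 2 CCAAT boxes and 3 GC boxes. Observed over expected CpG was 0.95 at Ccnb2 and 0.88 at Ccnb1. Ccnb2 was 1 of the 6 genes without a CpG-rich start, together with Ccnd1, Ccnd2, E2f2, Cdc25b and Cdc25c. Of these 6, 3 had a promoter peak in neither list (50.0%). The share was 47.1% over all protein-coding genes and 19.7% over those with a CpG-rich start. It was not counted over protein-coding genes without such a start, the like set.

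The D-type cyclins, which link growth signals to the cell cycle, were split. Ccnd1 had no peak. Ccnd2 had a MIZ-1WT peak of 10 fragments (fold 4.75, −log10 q 3.57) 1345 bp upstream of its start, whereas Ccnd3 had overlapping peaks of 7 and 11 fragments (−log10 q 2.15 and 4.14). Ccnf, whose product is the substrate receptor of a ubiquitin ligase, had a MIZ-1WT peak only, of 9 fragments (fold 5.38, −log10 q 4.14). Ccna2, which acts in S phase and G2, had a MIZ-1DPOZ peak only, of 14 fragments (fold 6.39, −log10 q 7.89) and 56 bp upstream of a start. Ccng2 had 7 and 9 fragments in peaks that did not overlap.

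Among the kinases, 4 of 10 had a MIZ-1WT promoter peak and 7 a MIZ-1DPOZ promoter peak, with 2 in both lists, 2 in MIZ-1WT only and 5 in MIZ-1DPOZ only. All 10 had a CpG-rich start. Their shares were 40.0% and 70.0%, against 53.6% and 74.2% of all protein-coding genes with such a start. The difference in counts between cyclins and kinases was not tested. With the shortened MIZ-1DPOZ list, 5 kinases and 3 cyclins kept a MIZ-1DPOZ promoter peak, as did 25.3% of all protein-coding genes. Cdk1, the mitotic kinase, had overlapping peaks of 8 fragments in MIZ-1WT (−log10 q 3.28) and 15 in MIZ-1DPOZ (−log10 q 8.91), with summits 510 and 515 bp downstream of the start. Cdk12, a kinase of RNA polymerase II, had 7 fragments in MIZ-1WT (fold 4.27, −log10 q 2.48) and 16 in MIZ-1DPOZ (fold 7.24, −log10 q 9.96), also overlapping. Its relative Cdk13 had peaks in the MIZ-1DPOZ list only, the best with 17 fragments (fold 6.68, −log10 q 9.47) in coding sequence 193 bp downstream of the start. Cdk9, the kinase of the elongation factor P-TEFb, also reached 17 fragments in MIZ-1DPOZ (fold 5.72, −log10 q 7.89), over a local background of 2.15 fragments against the most frequent value of 1.35 in the list.

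Cdk2, the partner of the E-type cyclins, had MIZ-1WT peaks only, both of 9 fragments (fold 5.10 and 5.06, −log10 q 3.83 and 3.78), 474 bp downstream and 112 bp upstream of starts. Of the D-type cyclin partners, Cdk6 had a MIZ-1WT peak of 7 fragments (−log10 q 2.48) and Cdk4 a MIZ-1DPOZ peak of 11 (−log10 q 3.09). At Cdk6 a MIZ-1DPOZ peak of 11 fragments (−log10 q 4.05) had its summit 2539 bp upstream of the closest start, outside the promoter window. It overlaps the annotated 5′ end of the gene and was therefore counted with the gene body peaks. The MIZ-1DPOZ peak counted for Cdk5 lay 1800 bp upstream, closer to the start of Slc4a2. Cdk8 had a MIZ-1DPOZ promoter peak of 12 fragments (−log10 q 5.96) and Cdk7 had none.

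In the full lists, the E2F family was the class of more than 3 genes with the fewest empty promoters. Of 8 genes, 7 had a promoter peak in each list and 6 in both, and E2f4 (8 fragments, MIZ-1WT, fold 4.73, −log10 q 3.23) and E2f6 (13 fragments, MIZ-1DPOZ, fold 5.96, −log10 q 6.90) had one in 1 list only. With 8 genes, the 87.5% in each list had an interval of 52.9 to 97.8, which included the shares of CpG-rich genes, 53.6% for MIZ-1WT and 74.2% for MIZ-1DPOZ. The counts of the family depended on the cutoff. With scores below 5 left out, 0 E2F genes kept a MIZ-1WT promoter peak, as against 9.78% of all protein-coding genes. A MIZ-1DPOZ promoter peak then remained at 5 (33.3% of all protein-coding genes). The shortened MIZ-1DPOZ list left 4 E2F genes with a MIZ-1DPOZ promoter peak (25.3%). E2f2, an activator E2F, had the highest peak of the family, with 18 fragments in MIZ-1DPOZ (fold 7.53, −log10 q 11.3) and 8 in MIZ-1WT (fold 4.36, −log10 q 2.72), in the 5′ untranslated region with summits 28 bp apart. E2f3 had 11 and 17 fragments (fold 5.18 and 5.23, −log10 q 4.33 and 7.06) in best peaks whose summits lay 944 bp apart. E2f5 had 9 and 11 fragments (fold 5.38 and 5.11, −log10 q 4.14 and 5.05) and E2f1 7 and 12, in peaks that did not overlap.

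The atypical repressors of the family, E2f7 and E2f8, each had overlapping peaks. E2f7 (ENSMUSG00000020185) had 10 fragments in MIZ-1WT (fold 5.56, −log10 q 4.62) and 9 in MIZ-1DPOZ (fold 4.26, −log10 q 3.37), and E2f8 had 10 in each (fold 5.33 and 4.68, −log10 q 4.29 and 4.19). The E2f8 peaks lie nearer to a start of the overlapping gene Gm2788.

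All 3 RB family genes, the pocket proteins that restrain E2F, had a MIZ-1DPOZ promoter peak, and 2 had a MIZ-1WT promoter peak. All 3 had a CpG-rich start, and over all protein-coding genes with such a start the shares were 74.2% and 53.6%. Rb1 (ENSMUSG00000022105) ranked above the other 40 genes by the smaller score of the lists. In MIZ-1WT its peak lay at chr14:73325467-73325774 with 12 fragments (fold 6.99, −log10 q 7.06), 223 bp downstream of the start. In MIZ-1DPOZ it lay at chr14:73325145-73325582 with 18 fragments (fold 7.97, −log10 q 12.0), 380 bp downstream, the best score of any of the 41 promoters in that list. A second pair of peaks upstream, of 8 and 9 fragments, also overlapped. Rbl1 (p107) had 9 and 11 fragments (fold 5.38 and 5.11, −log10 q 4.14 and 5.05), and Rbl2 (p130) had MIZ-1DPOZ peaks only, of 12 and 8 fragments.

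Of the CDC25 phosphatases, Cdc25a had 7 fragments in MIZ-1WT (−log10 q 2.48) and 10 in MIZ-1DPOZ (−log10 q 4.19), 518 bp apart. Cdc25b had a MIZ-1DPOZ peak of 14 fragments (fold 6.20, −log10 q 7.62) 130 bp upstream of its start, and Cdc25c had no peak.

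Promoter peaks were chosen by their overlap with the window around a start, so their closeness to starts follows from the rule. The positions below are a description and are not set beside those of other genes. The 34 MIZ-1WT summits ranged from 1345 bp upstream to 510 bp downstream of the closest start of the gene, with 28 within 500 bp. The 39 MIZ-1DPOZ summits ranged from 1800 bp upstream to 1168 bp downstream, with 30 within 500 bp. Upstream summits numbered 17 of 34 and 19 of 39. For 3 of the MIZ-1WT and 4 of the MIZ-1DPOZ peaks the nearest start belonged to another gene, at Ccnk, Ccnl1, Cdk5, Cdk9 and E2f8. Over 50% of the bases within 100 bp of the summit were repeat-masked at 1 of the 34 MIZ-1WT peaks (2.94%; Cdk12, 789 bp upstream) and at none of the 39 MIZ-1DPOZ peaks, against 3.80% and 4.48% of the promoter peaks of all protein-coding genes.

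**Figure D3:**
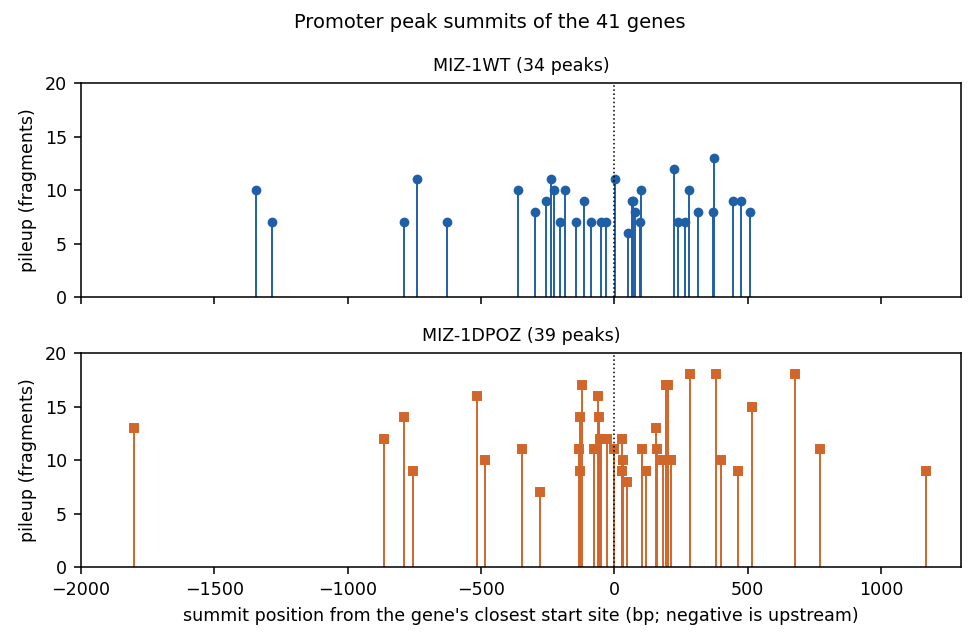
Promoter peak summits of the 41 genes, by distance in bp from the closest start site of the gene (horizontal axis, negative is upstream) and by summit pileup in fragments (vertical axis), for MIZ-1WT (top, 34 peaks) and MIZ-1DPOZ (bottom, 39 peaks). Of these, 28 and 30 lie within 500 bp of a start.

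Peaks at the same positions in both lists were a minority at these promoters. Of the 34 MIZ-1WT promoter peaks, 15 (44.1%) overlapped a MIZ-1DPOZ peak, whereas 73.3% of the 7584 MIZ-1WT promoter peaks of all protein-coding genes did. Among the 7127 of these with 6 to 13 fragments, the range of the cell cycle genes, the share was 72.7%. In the other direction, 14 of 39 MIZ-1DPOZ peaks (35.9%) overlapped, against 41.2% of all protein-coding promoter peaks. By gene, overlapping peaks were present at 12 of the 18 genes with a peak in both lists (66.7%, against 88.5% of 5847). The 6 genes where no peaks overlapped were Ccnb1, Ccng2, Cdc25a, E2f1, E2f3 and E2f5. These shares are descriptions and carry no test.

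Pileups were set against each other after division by the depth ratio of 1.34, at the best peak of each list. Over the 18 genes in both lists the depth-scaled pileup of MIZ-1DPOZ relative to MIZ-1WT had a median log2 value of 0.13, against 0.11 over the 5847 protein-coding genes in both. It ranged from −0.80 to 0.77, with 10 genes higher and 8 lower in MIZ-1DPOZ. For all 18 the exact 95% interval of the ratio included 1, so that no difference in height was detectable at this depth. Cdk12 had the highest ratio (1.70, 0.664 to 4.90), followed by E2f2 (1.68, 0.694 to 4.46). Ccnl2 had the lowest (0.574, 0.225 to 1.42), followed by E2f7 (0.671, 0.241 to 1.84). The best peaks overlapped at 10 of the 18 genes, and at the other 8 the ratio sets pileups at different positions side by side. Scaled by the most frequent local background (a ratio of 1.57) in place of depth, the median was −0.10 and 11 genes were lower, so the sign of the median depends on the scaling.

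**Figure D4:**
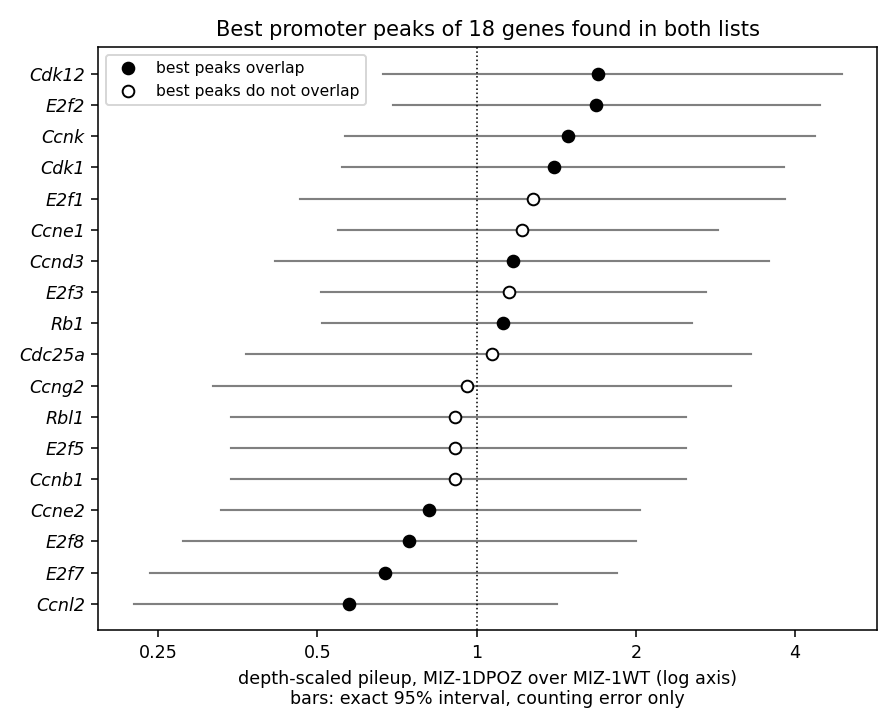
Ratio of depth-scaled summit pileups, MIZ-1DPOZ over MIZ-1WT (horizontal log axis), for the 18 genes with a promoter peak in both lists; bars are exact 95% intervals for counting error, filled symbols are genes whose best peaks overlap. Ratios run from 0.574 at Ccnl2 to 1.70 at Cdk12 and each bar crosses 1.

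Outside promoter windows, gene body peaks were found at 4 genes in the MIZ-1WT list (5 peaks) and at 13 in the MIZ-1DPOZ list (25 peaks). These are 9.76% and 31.7% of the 41 genes, against 24.2% and 42.8% of all protein-coding genes. With a CpG-rich start, the shares were 11.4% and 31.4% of the 35 members, against 30.8% and 52.3% of all such genes. The median gene length was 23.7 kb for the 41 genes and 17.4 kb for all protein-coding genes. It was 28.6 kb for all those with a CpG-rich start. One site was far above all other peaks at these genes. In an intron of Cdk8 (ENSMUSG00000029635), which encodes the kinase of the Mediator complex, the MIZ-1WT peak at chr5:146260961-146261398 held 188 fragments (fold 28.9, −log10 q 206), and the MIZ-1DPOZ peak at chr5:146260934-146261420 held 269 (fold 27.2, −log10 q 282). They ranked 25th and 17th by score in their lists. The summits lay 29814 and 29850 bp downstream of the start. The bases within 100 bp of the MIZ-1WT summit are shown because the site is unlike the promoter peaks in height and, with 65.2% GC but no repeat masking, not marked as a repeat.
Cdk8 intron, chr5:146261002-146261202, plus strand: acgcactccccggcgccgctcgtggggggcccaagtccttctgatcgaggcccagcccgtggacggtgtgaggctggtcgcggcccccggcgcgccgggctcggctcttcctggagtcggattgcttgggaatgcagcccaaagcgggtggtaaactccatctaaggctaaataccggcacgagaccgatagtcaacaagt
This stretch held none of the 5 motifs. Related stretches occur elsewhere: blastn of the 487 bp covered by the peaks found 4 other matches in the assembly, of 117 to 278 bases and 83.1% to 94.0% identity, on chromosomes 1, 2 and 3. All 4 carried a peak in both lists, of 93 and 147 fragments on chromosome 3, 53 and 80 on chromosome 2, and 25 and 37 and 13 and 22 on chromosome 1. The local background that the caller used at the Cdk8 site was raised as well, 6.44 times the most frequent background in MIZ-1WT and 6.62 times in MIZ-1DPOZ. The letters of the stretch also resemble part of the large subunit ribosomal RNA, whose genes are present in many copies. This likeness was not tested, since a complete ribosomal RNA gene was not used here. How many of the 188 and 269 fragments come from Cdk8 itself is therefore not known, and the part of the related stretches and of the raised background in the peak was not tested.

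The other gene body peaks held 6 to 19 fragments. The next by score in MIZ-1WT lay in an intron of Ccnf (chr17:24245640-24246131, 16 fragments, fold 8.80, −log10 q 11.2), fully repeat-masked with 35.8% GC, and 32-base sequences around its summit occurred a median of 4262 times in the assembly. No MIZ-1DPOZ peak overlapped it. Cdk6 had 2 intron peaks of 9 fragments (fold 5.38, −log10 q 4.14 each) and E2f3 1 of 6 (fold 3.76, −log10 q 1.76), and each overlapped a MIZ-1DPOZ peak. In MIZ-1DPOZ, Rb1 had 5 intron peaks of 11 to 19 fragments (the best 3 with folds of 7.47, 6.81 and 5.59 and −log10 q of 11.6, 8.91 and 8.38), all over 50% repeat-masked, and none overlapped a MIZ-1WT peak. Peaks of 14 fragments lay in coding sequence of Cdk12 and in the 3′ untranslated region of E2f3, with no masked bases (fold 6.39, −log10 q 7.89 each). Of the 25 MIZ-1DPOZ gene body peaks, 9 were over 50% masked and 4 overlapped a MIZ-1WT peak.

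**Figure D5:**
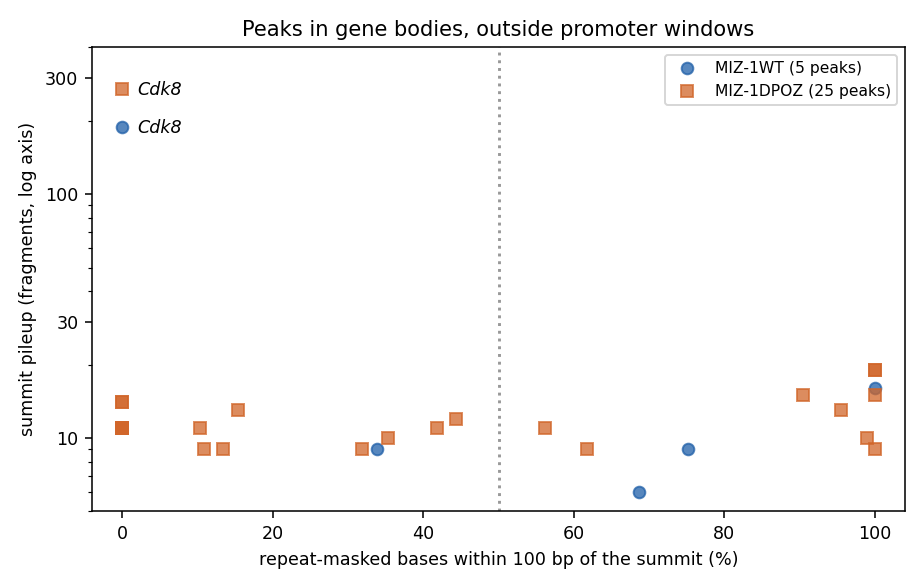
Summit pileup in fragments (vertical log axis) of the peaks in gene bodies outside promoter windows, by the percentage of repeat-masked bases within 100 bp of the summit (horizontal axis), for MIZ-1WT (circles, 5 peaks) and MIZ-1DPOZ (squares, 25 peaks); the dotted line marks 50%. The Cdk8 intron peaks, at 188 and 269 fragments with no masked bases, stand above all others, which hold 6 to 19.

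The promoters of the 41 genes were searched for short motifs of cell cycle and CpG island promoters on both strands of the RefSeq promoter sequences, 250 bases before to 50 after the start. The table of promoters held 34 for 31 of the genes. Its 32851 promoters belong to 27025 genes, a different comparison set from the 21938 protein-coding genes used for the peaks. E2F sites (TTTCCCGC, TTTGGCGC, TTTCGCGC or TTTGCCGC) were in 7 of the 34 (20.6%), against 2.26% of all 32851 promoters. They were in promoters of Cdc25a, Cdk1, Cdk2, E2f2, E2f3, E2f7 and Rbl1. Of these 7 genes, 6 had a promoter peak in both lists and Cdk2 in the MIZ-1WT list only. The sites need not lie under the peaks, since the promoter window is wider than the searched sequence. At Cdc25a, E2f2 and E2f3 no peak of either list overlapped the searched promoter that held the site. The E2F site in the E2f3 stretch shown further above is a different one, within the MIZ-1WT peak and outside the searched promoters. At Cdk1 only a MIZ-1DPOZ peak did. By promoter, 6 of 18 in the group with peaks in both lists held an E2F site (33.3%), 1 of 4 in MIZ-1WT only, and none of the 7 in MIZ-1DPOZ only or of the 5 in neither. GC boxes (GGGCGG) were in 31 of 34 promoters (91.2%, against 35.7% of all), and in all 5 of the group in neither list. CCAAT boxes (CCAAT) were in 18 (52.9%, against 37.4%), E-boxes (CACGTG) in 5 (14.7%, against 7.15%) and CHR elements (TTTGAA or TTCGAA, which mark genes of late cell cycle phases) in 8 (23.5%, against 19.2%). The median GC content was 66.0%, against 52.7% over all promoters. Motif shares over CpG-rich promoters alone were not counted. A match is a description of letters and not evidence of a bound factor.

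Another 41 genes of the same processes, among them other cyclins and kinases, the DP partners of E2F, the MuvB complex and regulators of CDK1, were counted by the same rule. MIZ-1WT promoter peaks were at 24 of them (58.5%) and MIZ-1DPOZ promoter peaks at 31 (75.6%). Of the 41, 34 had a CpG-rich start, and over all protein-coding genes with such a start the shares were 53.6% and 74.2%. Peaks were in both lists at 22 genes (53.7%, against 47.6% of CpG-rich genes) and in MIZ-1WT only at 2 (4.88%, against 6.05%). They were in MIZ-1DPOZ only at 9 (22.0%, against 26.7%) and in neither at 8 (19.5%, against 19.7%). The promoter table held 39 promoters for 32 of these genes, with a median GC content of 62.3% (52.7% over all promoters). GC boxes were in 74.4% of the 39 (35.7% of all promoters), CCAAT boxes in 48.7% (37.4%) and CHR elements in 23.1% (19.2%). E-boxes were in 15.4% (7.15%) and E2F sites in 7.69% (2.26%). The largest smaller scores were at Tfdp2, which encodes an E2F dimerisation partner (16 fragments in MIZ-1WT and 20 in MIZ-1DPOZ, −log10 q 11.1 and 14.4), Ccni (14 and 15, −log10 q 9.29 and 8.91) and Tfdp1 (12 and 17, −log10 q 6.03 and 8.76). The Tfdp2 pair exceeded every promoter peak of the 41 genes in both lists.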

How the data were processed

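MIZ-1 ChIP and input libraries of MIZ-1WT and MIZ-1DPOZ B220+ splenocytes (1 of each) were represented by a narrow peak list per genotype. The study's methods name Trimmomatic, bwa and MACS2 with alignment to mm10, whereas the submitters' processing notes name Bowtie2 2.2.6 and MACS2 2.1.0, an earlier MACS2 release than the methods give, so the aligner and the peak caller's release are uncertain. The q-value cutoff and how duplicates and multi-mapping reads were handled are not given in the sources used here. The deposited lists give fold enrichment, a ratio at the summit over the local background with input, and the −log10 of the p-value and q-value, all by the authors. From these, whole-number summit pileups and backgrounds were solved under MACS2's formulas and gave back the deposited −log10 p within 0.001 for 100% of peaks. Solving was also tested on simulated data. Depth was the most frequent background (0.860 and 1.35 fragments) divided by the smallest peak width (148 and 173 bp). GENCODE basic annotation, genome and RefSeq promoters are of GRCm38, the assembly of mm10. Coordinates are 1-based. The 41 genes, the list of other cell cycle genes, the motifs and the naming rules were chosen with earlier results of these data known. Full values are given for the first 10 genes in both lists by the smaller score, the first 5 in each list only, the first 5 gene body peaks of each list, and the highest and lowest 2 pileup ratios. One sequence that the naming rule would show is not reported here. Ratio intervals are exact binomial with depth held fixed. Related stretches at the Cdk8 site, and copy counts of 5 sequences of 32 bases around each summit, were chosen after seeing the data. Alternatives were score and fold cutoffs, other promoter definitions, equal list lengths, removal of repeat peaks and another scaling. Python 3.11.15, numpy 2.4.6, pandas 2.3.3, scipy 1.17.1, pysam 0.24.0, blastn 2.17.0 and matplotlib 3.10.9 were used.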

Additional observations from a re-analysis of the deposited data

How the results depend on the processing

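Of 60 recomputed counts and medians over the 41 genes, 47 stayed within 1.5 times the reported count or, for the median ratio, within the counting error of a gene, and 12 moved further. With a −log10 q minimum of 5, the genes with a promoter peak numbered 4 for MIZ-1WT, 3 for both lists, 1 for the MIZ-1WT list only and 16 for the MIZ-1DPOZ list only, and 2 had a MIZ-1WT gene body peak. At a fold of at least 5, 12 had a MIZ-1WT promoter peak and 6 had one in both lists. With the MIZ-1DPOZ list cut to the number of MIZ-1WT peaks, 14 had a MIZ-1DPOZ promoter peak, 8 were in both lists, 16 in the MIZ-1WT list only, and 6 had a MIZ-1DPOZ gene body peak. Without repeat peaks, 2 had a MIZ-1WT gene body peak. These alternatives keep fewer peaks by construction. With the −log10 q minimum of 5, 9.78% of all protein-coding genes had a MIZ-1WT promoter peak. With the cut list, 25.3% had a MIZ-1DPOZ promoter peak, 16.1% were in both lists and 14.8% in the MIZ-1WT list only. Shares over all protein-coding genes were not counted for the fold cutoff or for gene bodies under these alternatives. Nor were they counted for both lists or 1 list only at the −log10 q minimum. Scaling by background gave a median log2 pileup ratio of −0.10 in place of 0.13. Counts with summits inside the window, the nearest start only, a window of 500 bp to each side, the outermost start, and a −log10 q of at least 2 stayed within 1.5 times. With 7 to 18 fragments behind each best promoter peak, differences in height of less than about the widths of the intervals given could not be seen. No library could be left out, since each genotype had 1 ChIP library. No paired analysis was possible because each group has 1 library and no test was run.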
